A study of Mus musculus with 15 samples.

Results

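The enzymes described here carry glucose to lactate or carboxylate pyruvate inside the mitochondrion: 8 enzymes of glycolysis (Hk1, Hk2, Pfkl, Aldoa, Tpi1, Pgk1, Eno1 and Ldha) and pyruvate carboxylase (Pcx). They were chosen by gene symbol, but with earlier results of these data known. Counts of calls among them are therefore not counts over a set drawn independently of the data. Each probe set that the array annotation assigns to 1 of these symbols alone was read, together with the control probe sets that the array carries for mouse pyruvate carboxylase. This gave 15 probe sets of 12488 in all, 9 for the glycolysis genes and 6 for Pcx, of which 4 were controls. Probe sets were found for 8 of the 9 genes, out of 8252 genes that the annotation names alone. No probe set was assigned to Eno1, so no value is given for it.

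RNA came from NIH 3T3, a mouse fibroblast line that grows without limit, and was hybridized to 15 Affymetrix MG_74Av2 oligonucleotide arrays, 3 in each of 5 groups. The cells carried the plasmid pMTCB6+, whose metallothionein promoter is switched on by zinc, with the human cDNA of C/EBP alpha, beta, delta or epsilon, or with no insert (vector). Transfectants were selected with G418 and described as polyclonal, and every group, vector included, received zinc sulphate for 16 h before total RNA was taken. The arrays of a group come from what the labels call triplicate clones, and whether these were separate transfections was not established here. The p-values therefore measure the spread between these cultures. The levels of the introduced human proteins or cDNAs were not analysed here. In a culture, a change of RNA per cell and a change in the share of cells that carry the RNA cannot be told apart.

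Hexokinases trap glucose as its phosphate, phosphofructokinase commits the sugar to glycolysis, and aldolase and triosephosphate isomerase turn it into the triose that the lower pathway oxidizes. Phosphoglycerate kinase then makes ATP, and lactate dehydrogenase reduces pyruvate to lactate, which restores the cofactor the pathway needs. Pyruvate carboxylase instead adds carbon dioxide to pyruvate inside the mitochondrion, with biotin as cofactor, and gives oxaloacetate for gluconeogenesis, the citrate cycle and fat synthesis. C/EBPs are basic leucine zipper transcription factors of fat, liver and myeloid cells, and pyruvate carboxylase is abundant in liver and in fat.

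Of the 7 tested glycolysis genes, 3 (Hk2, Pfkl and Ldha) were higher than vector in alpha and in epsilon. The shares of all tested probe sets called higher there were 7.19% and 9.4%. Pfkl, the liver-type subunit of phosphofructokinase, had larger rises in alpha, beta and epsilon than the other glycolysis members. It was 2.7-fold higher in alpha, 2.52-fold higher in epsilon and 1.62-fold higher in beta. Hk2, Ldha and the 3′ control probe set of Pcx rose in alpha and in epsilon by 1.36-fold to 1.99-fold. The calls of Hk2 and Ldha, and that of the 3′ control in alpha, were each lost in several alternative runs. None of the 8 further glycolysis genes tested was called higher in any C/EBP group, and some were called lower, as given below. Hk1, both Aldoa probe sets, Tpi1 and Pgk1 passed the test in no C/EBP group. No member passed in delta. A rise or fall here means an adjusted p under 0.05 in limma's moderated test, with Benjamini-Hochberg adjustment over all 6965 probe sets tested. Differences are on the log2 scale, errors beside them are standard errors (SE) of the fit, and signals are given in scaled intensity units with the SD over 3 arrays.

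Of the 15 member probe sets, 13 were tested. The lower-reading Hk2 probe set (161313_at) was at the floor value on all 15 arrays, with group means of 27.86 to 59.18 units. The Pcx probe set 162288_f_at exceeded the signal filter on no array and averaged 436.6 to 816.5 units. The MB control probe set of Pcx passed the filter through only 6 arrays (3 of alpha, 1 of beta and 2 of epsilon), so it was tested because of the groups in which it was high. Its test is not read as a result, and counts are given with and without it. In alpha, 5 of the 13 tested member probe sets were higher than in vector (4 of 12 without MB), against 7.19% of all tested probe sets. In beta 1 was higher (1 of 12 without MB), against 5.13%. None of the 13 passed in delta, against 0.359% of all, and 0 had an unadjusted p under 0.05. In epsilon 5 were higher (4 of 12 without MB), against 9.4%, and the share of higher calls among all called probe sets was 57.7%, or 46% when each array was scaled on its median ratio against the average array. By limma no member was called lower than vector in any group, while 7.15% of all tested probe sets were called lower in alpha, 4.18% in beta, 0% in delta and 6.91% in epsilon. No member was lower at an unadjusted p under 0.05 either, where 860, 653, 144 and 804 of the 6965 probe sets were. The 7 tested glycolysis genes, each read by its brightest probe set, had median log2 differences of 0.34 in alpha, 0.12 in beta, 0.12 in delta and 0.39 in epsilon. The corresponding medians over all tested probe sets were 0, 0.03, 0.01 and 0.08. The 4 comparisons share the vector arrays.

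**Figure D1:**
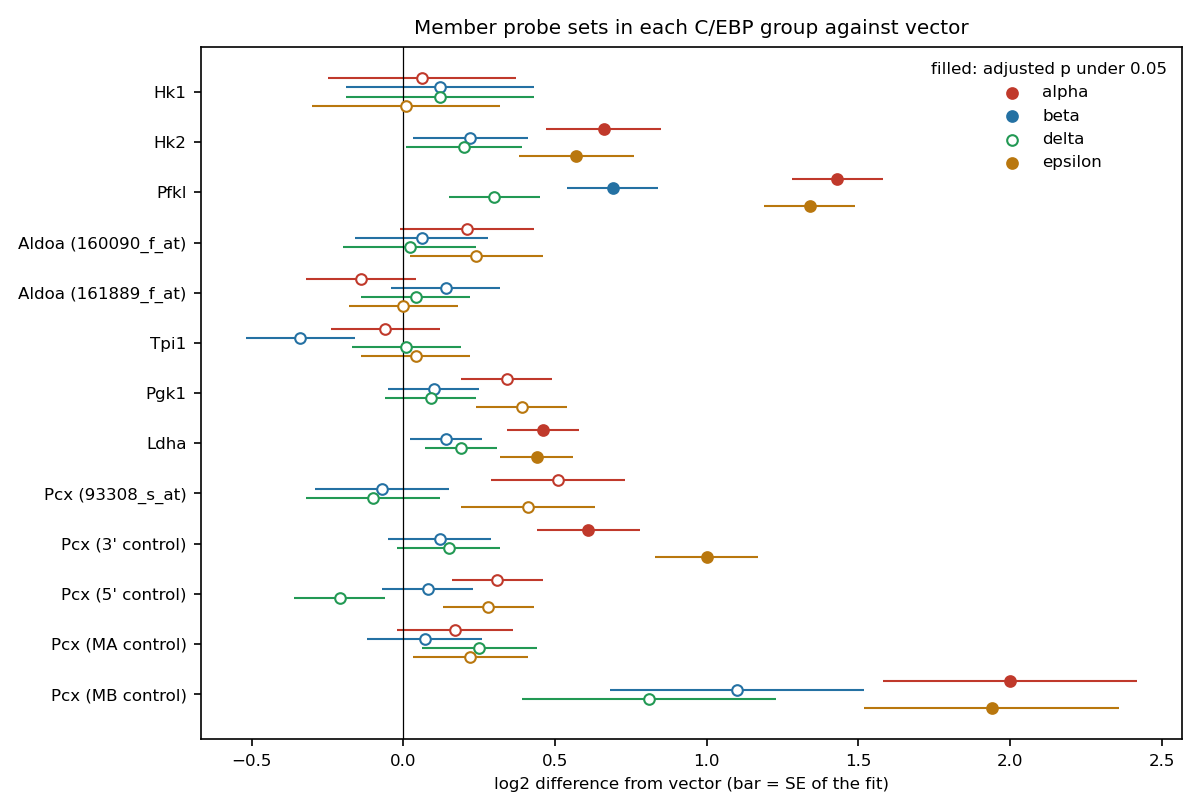
Log2 difference from vector (horizontal axis, points with the standard error of the fit as bars) of the 13 tested member probe sets in the 4 C/EBP groups (colours), with filled points where the adjusted p was under 0.05. Pfkl was called in alpha, beta and epsilon, the calls of Hk2, Ldha and the 3′ control of Pcx lay in alpha and epsilon, and all points of delta are open. The MB control entered the test only through the groups in which it was high.

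The promoters of the 4 genes with a call are shown because they let the sequence be read beside these values. Each window holds the 250 bases before an annotated start in RefSeq (assembly GRCm38.p6), written on the gene's own strand, and capitals mark matches to 4 letter patterns searched on both strands: TTNNGNAA, a loose form of the C/EBP site, the CCAAT box CCAAT, the GC box GGGCGG and the hypoxia response core ACGTG. The Hk2 gene lies at chr6:82725025-82774454 on the minus strand, and its window is chr6:82774455-82774704. Pfkl lies at chr10:77986947-78009807 on the minus strand, with the window chr10:78009808-78010057. Ldha lies at chr7:46842274-46855627 on the plus strand, with the window chr7:46845554-46845803 before 1 of its starts. Pcx lies at chr19:4510472-4621752 on the plus strand, with the window chr19:4510222-4510471 before the first of its starts.
Hk2: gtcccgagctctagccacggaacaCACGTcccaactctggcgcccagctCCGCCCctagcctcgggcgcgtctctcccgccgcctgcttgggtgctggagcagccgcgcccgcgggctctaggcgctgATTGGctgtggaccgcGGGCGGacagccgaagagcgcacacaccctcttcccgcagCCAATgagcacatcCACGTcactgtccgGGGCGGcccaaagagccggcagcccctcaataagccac
Pfkl: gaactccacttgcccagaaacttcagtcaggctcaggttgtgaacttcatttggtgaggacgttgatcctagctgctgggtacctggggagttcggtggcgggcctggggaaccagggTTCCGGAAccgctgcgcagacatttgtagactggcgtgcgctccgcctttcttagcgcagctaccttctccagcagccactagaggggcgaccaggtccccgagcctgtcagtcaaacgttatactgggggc
Ldha: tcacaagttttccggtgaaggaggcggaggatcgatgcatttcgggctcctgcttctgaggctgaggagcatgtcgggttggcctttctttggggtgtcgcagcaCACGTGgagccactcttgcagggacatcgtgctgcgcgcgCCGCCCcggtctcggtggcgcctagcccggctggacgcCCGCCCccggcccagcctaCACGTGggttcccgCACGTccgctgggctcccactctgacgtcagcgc
Pcx: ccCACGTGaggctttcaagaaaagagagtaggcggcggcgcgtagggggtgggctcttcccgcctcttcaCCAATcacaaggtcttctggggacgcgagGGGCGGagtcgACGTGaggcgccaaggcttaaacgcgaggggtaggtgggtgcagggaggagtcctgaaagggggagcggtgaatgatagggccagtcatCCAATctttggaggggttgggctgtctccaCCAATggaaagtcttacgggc
Pfkl has TTCCGGAA from 132 to 125 bases before the start, a palindrome that matches TTNNGNAA on both strands, and no match to the other 3 patterns. Hk2 has 2 CCAAT boxes, 3 GC boxes and 2 ACGTG matches. Ldha has 2 GC boxes and 5 ACGTG matches, of which 4 form CACGTG, where the pattern overlaps its own reverse complement. Pcx has 3 CCAAT boxes, 1 GC box and 3 ACGTG matches, 2 of them in CACGTG. None of the windows of Hk2, Ldha and Pcx shown here has TTNNGNAA, but the window before the other Ldha start has 1 match, 72 to 65 bases before it. The pattern is found in 36.8% of 32851 such windows of 27025 genes. The shares of all windows with the other patterns were 33.8% for CCAAT, 32.7% for GGGCGG and 16.6% for ACGTG. Over the 16 windows of the 9 genes, 5 had TTNNGNAA, 7 CCAAT, 9 GGGCGG and 6 ACGTG. A match describes the letters and is no evidence of binding.

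Of the hexokinases, Hk2 passed the test in alpha and epsilon and Hk1 in no group. A difference between the 2 genes was not tested. Hk2, the inducible hexokinase of muscle, fat and proliferating cells (probe set 94375_at), read 5811, 7277 and 5632 units in vector and 8218, 10755 and 10540 in alpha. In beta it read 5762, 9054 and 7202, in delta 5798, 8476 and 7298, and in epsilon 8091, 10962 and 8873. All alpha and epsilon arrays lay above all vector arrays, while beta and delta overlapped vector. Hk2 was 1.58-fold higher in alpha (log2 0.66, SE 0.19, adjusted p = 0.0258) and 1.49-fold higher in epsilon (log2 0.57, SE 0.19, adjusted p = 0.0464). The alpha call was lost with no signal filter (0.0789) and without vector replicate 1 or 3 or alpha replicate 2 or 3 (0.0842, 0.101, 0.0962 and 0.0956), its adjusted p ranging from 0.000276 to 0.101 over the alternatives. The epsilon call was lost with no filter (0.115), with no trend (0.0705), with only the groups compared (0.0626), without the arrays numbered 1 (0.0524), and without vector replicate 1 or 3 (0.128 and 0.151), alpha replicate 2 or 3 (0.053 and 0.0553), beta replicate 3 (0.0614), delta replicate 3 (0.0606) or epsilon replicate 2 or 3 (0.171 and 0.0876), over a range of 0.000944 to 0.171. In beta and delta the differences were 0.22 and 0.20 (adjusted p = 0.551 and 0.981). Alpha and epsilon were not called against beta (adjusted p = 0.348 and 0.415) or against delta (0.164 and 0.242). Delta against alpha (-0.46) was called with quantile normalization (0.0308) and with no scaling (0.0441), over a range of 0.00784 to 0.448.

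Hk1, the constitutive hexokinase of most tissues (99335_at), averaged 31700 ± 11920 units in vector (SD, n = 3), 32370 ± 9333 in alpha, 34030 ± 10750 in beta, 33040 ± 5656 in delta and 31480 ± 9787 in epsilon. The group means lay within the SD of each group, and the log2 differences from vector were 0.01 to 0.12 (SE 0.31, adjusted p of 0.864 to 0.996). The interval of the difference was wide, from -0.61 to 0.72 in alpha. The arrays numbered 1 read lowest in every group, and their part in this width was not tested.

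Pfkl (92637_at) encodes the liver-type subunit of phosphofructokinase, the enzyme of the committed step. It read 7704, 8316 and 7297 units in vector, 19170, 21633 and 22133 in alpha, and 16956, 22890 and 19360 in epsilon. Beta arrays read 10756, 15902 and 11579 and delta arrays 8841, 10163 and 9756. Every C/EBP array exceeded every vector array, and alpha and epsilon arrays exceeded every beta and delta array. The rise was 1.43 in alpha (log2, SE 0.15, adjusted p = 4.22e-06), 1.34 in epsilon (SE 0.15, 1.05e-05) and 0.69 in beta (SE 0.15, 0.0071). These calls held under each alternative run, with adjusted p-values of 1.86e-08 to 0.000112 in alpha, 6.4e-08 to 0.000514 in epsilon and 0.00018 to 0.04 in beta. In delta the difference of 0.30 (95% interval -0.01 to 0.62) was not called (adjusted p = 0.817, unadjusted p = 0.0604).

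The levels of Pfkl rose in the order vector, delta, beta, epsilon, alpha. Vector and delta, the lowest neighbours, did not differ by the test. Delta and beta did not overlap, but their difference of -0.39 (delta against beta) was not called (adjusted p = 0.169). It was called with quantile normalization (0.0158), with no scaling (0.0421) and with array weights (0.0471), over a range of 0.0158 to 0.571. Beta was lower than epsilon (epsilon against beta 0.64, SE 0.15, adjusted p = 0.0308). That call was lost with no filter (0.0701), with no trend (0.0589), with only these groups (0.181), without the arrays numbered 1 (0.137), and without beta replicate 1 or 3 (0.142 and 0.139), delta replicate 3 (0.0513) or epsilon replicate 2 or 3 (0.115 and 0.101), over a range of 0.000418 to 0.181. Epsilon and alpha differed by -0.10 (95% interval -0.41 to 0.22, adjusted p = 0.915). Beta was also lower than alpha (-0.74, adjusted p = 0.00852). This call was lost without alpha replicate 3, beta replicate 1 or beta replicate 3 (0.0503, 0.0541 and 0.0558) and without the arrays numbered 1 (0.0703), over a range of 4.59e-05 to 0.0703. Delta was lower than alpha by 1.13 on the log2 scale (adjusted p = 0.000105) and lower than epsilon, with epsilon against delta at 1.03 (adjusted p = 0.000259), and both calls held under each alternative run.

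**Figure D2:**
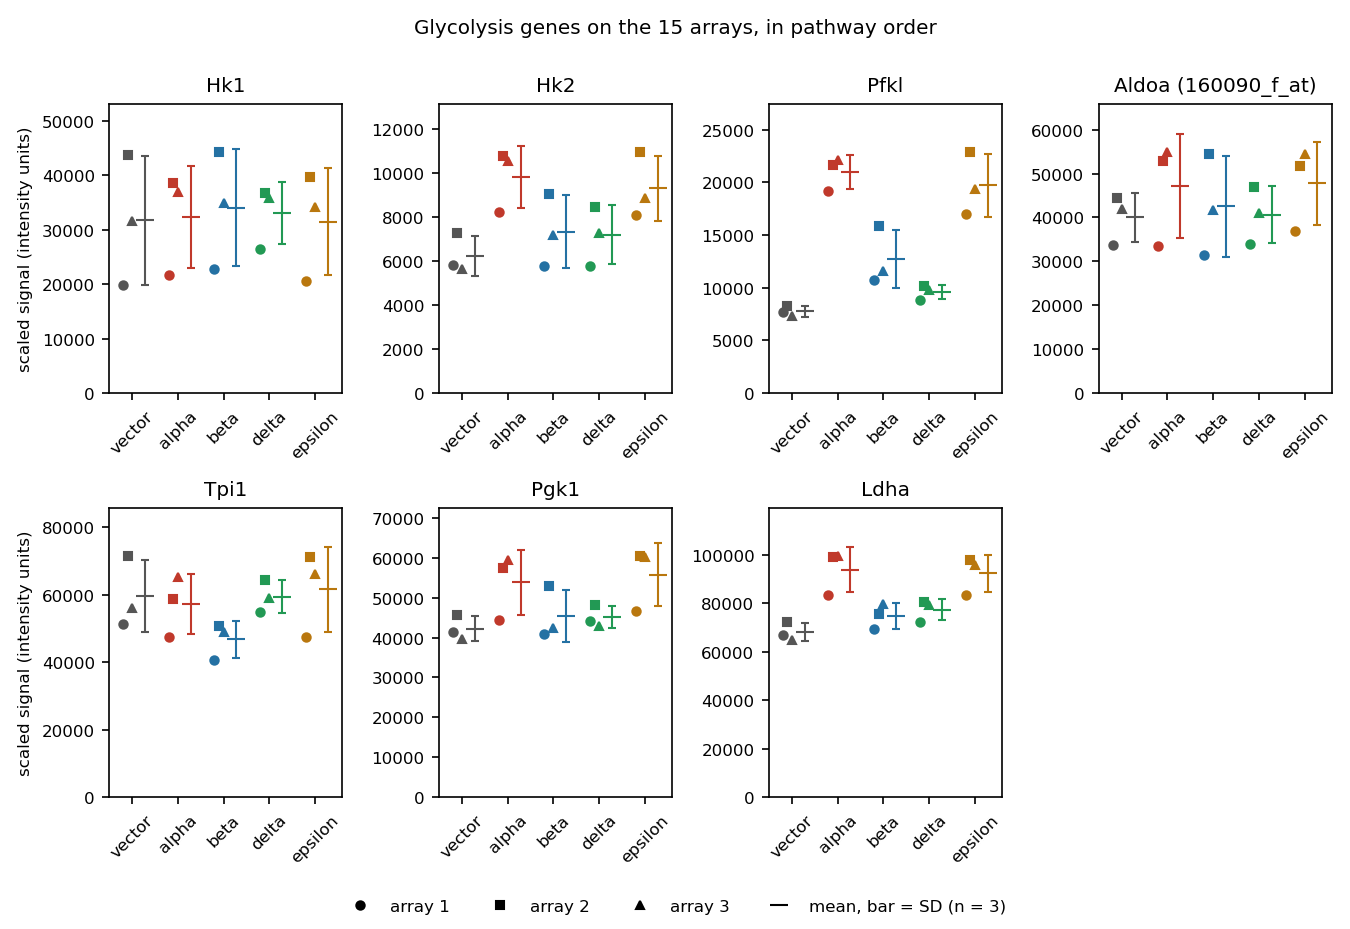
Scaled signal (vertical axis, intensity units, a separate scale in each panel) of the 7 tested glycolysis genes on the 15 arrays, by group; symbols mark the array number, and the line and bar beside them are the mean and SD over 3 arrays. The alpha and epsilon arrays of Pfkl lie at 16956 to 22890 units, above all other arrays, and the arrays numbered 1 are the lowest of every group for Hk1.

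Aldoa and Tpi1, the enzymes that split the hexose and interconvert the resulting trioses, gave no call. The Aldoa probe set 160090_f_at averaged 40040 ± 5586 units in vector, with C/EBP group means of 40680 to 47770 units and log2 differences of 0.02 to 0.24 (SE 0.22). Its other probe set, 161889_f_at, averaged 18960 ± 3931 in vector and 16980 to 20770 in the others, with differences of -0.14 to 0.14 (SE 0.18). Thus the probe sets differed in sign in alpha (0.21 and -0.14), neither passing the test. The suffix of both marks sets that may also read related sequences.

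Tpi1 (99566_at) read 51406, 71558 and 56021 units in vector and 40593, 50749 and 48999 in beta, so that all beta arrays lay below all vector arrays. The difference of -0.34 (95% interval -0.71 to 0.03) was not called (adjusted p = 0.26). It was called with quantile normalization (-0.22, adjusted p = 0.0293), over a range of 0.0216 to 0.54. In alpha, delta and epsilon Tpi1 averaged 57170 ± 8928, 59420 ± 4870 and 61630 ± 12620 units, and all overlapped vector.

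Pgk1, the first ATP-making enzyme of the lower pathway (93346_at), read 41463, 45621 and 39627 units in vector, 44519, 57473 and 59513 in alpha and 46617, 60507 and 60201 in epsilon. Beta arrays read 40848, 52871 and 42331 and delta arrays 44211, 48140 and 42872. The epsilon arrays lay above all vector arrays, while alpha replicate 1 fell within the vector range. The differences of 0.34 in alpha (SE 0.15) and 0.39 in epsilon (SE 0.15) were not called (adjusted p = 0.156 and 0.085). In alpha it was called with quantile normalization (0.49, adjusted p = 7.25e-05) and with no scaling (0.0314), over a range of 7.25e-05 to 0.416. In epsilon it was called with quantile normalization (0.55, 2.42e-05), with no scaling (0.0296), with array weights (0.0105), without epsilon replicate 1 (0.0306) and without the arrays numbered 1 (0.0385), over a range of 2.42e-05 to 0.245.

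Ldha, which makes lactate from pyruvate (96072_at), read 66851, 72217 and 65085 units in vector, 83321, 99019 and 99651 in alpha and 83537, 97746 and 95865 in epsilon. Beta arrays read 69260, 75660 and 79601 and delta arrays 72357, 80547 and 79314. The alpha and epsilon arrays lay above every array of the other groups, and the delta arrays lay just above the vector arrays. Ldha was 1.38-fold higher in alpha (log2 0.46, SE 0.12, adjusted p = 0.0166) and 1.36-fold higher in epsilon (log2 0.44, SE 0.12, adjusted p = 0.0214). The alpha call was lost with only the groups compared (0.0815) and without vector replicate 1 or 3 or alpha replicate 2 or 3 (0.0513, 0.0712, 0.0683 and 0.0674), over a range of 0.000184 to 0.0815. The epsilon call was lost with only the groups compared (0.12) and without vector replicate 1 or 3 or epsilon replicate 2 or 3 (0.0637, 0.085, 0.0741 and 0.0795), over a range of 0.000328 to 0.12. Beta and delta differed from vector by 0.14 and 0.19 (SE 0.12, adjusted p = 0.577 and 0.933). The differences of alpha and epsilon from beta and delta were not called (adjusted p = 0.243 for beta against alpha, 0.207 for delta against alpha, 0.265 for epsilon against beta and 0.229 for epsilon against delta). Beta against alpha (-0.33) was called with quantile normalization (0.0432), with no scaling (0.0258) and with scaling by the median ratio (0.0322), over a range of 0.0107 to 0.581. Delta against alpha (-0.28) was called with quantile normalization (0.0327) and no scaling (0.0349), over a range of 0.0154 to 0.45.

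Pyruvate carboxylase was read by 5 tested probe sets, which share 1 transcript and are not replicates. Its leading probe set, the 3′ control, read 2432, 2853 and 2307 units in vector, 3475, 3942 and 4117 in alpha and 3997, 5968 and 5326 in epsilon. Beta arrays read 2394, 3394 and 2506 and delta arrays 2656, 2853 and 2882. Alpha and epsilon arrays lay above all arrays of the other groups, and beta and delta overlapped vector. The rise was 1.99-fold in epsilon (log2 1, SE 0.17, adjusted p = 0.000626), a call that held under each alternative run (3.29e-05 to 0.0383). In alpha it was 1.52-fold (log2 0.61, SE 0.17, adjusted p = 0.0212). The alpha call was lost without vector replicate 1 or 3, alpha replicate 2 or 3 (0.067, 0.0856, 0.0647 and 0.0811) or the arrays numbered 1 (0.0533), and over the mean of the probe sets other than MB (0.091), the range being 0.00305 to 0.091. In beta and delta the differences were 0.12 and 0.15 (adjusted p = 0.746 and 0.992).

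The MB control, which by its name reads a middle stretch of the transcript, is given as a description. It read 386.6, 354.6 and 288.8 units in vector, 1298, 1424 and 1362 in alpha and 1038, 1528 and 1412 in epsilon, all apart from vector. Beta arrays read 591.8, 1184 and 561.1 and delta arrays 282.2, 900 and 833.2, so delta replicate 1 lay below every vector array. The log2 differences were 2 in alpha, 1.94 in epsilon, 1.10 in beta and 0.81 in delta (SE 0.42), and those of alpha and epsilon were 1.02 and 0.96 with the floor at the 40th percentile. Since the high groups brought this probe set past the filter, no test is read from these differences.

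The other Pcx probe sets moved less. The 5′ control averaged 1748 ± 137.8 units in vector, 2167 ± 112.6 in alpha, 1849 ± 72.78 in beta, 1519 ± 220.8 in delta and 2118 ± 210.8 in epsilon. Alpha and epsilon lay above vector on every array, by 0.31 and 0.28 (SE 0.15), which was not called (adjusted p = 0.209 and 0.242). The probe set 93308_s_at, whose suffix marks it as shared with similar sequences, averaged 1420 ± 380.3 in vector, 1984 ± 223.6 in alpha and 1865 ± 414.5 in epsilon. Its differences of 0.51 and 0.41 (SE 0.22) overlapped vector and were not called (adjusted p = 0.148 and 0.235). The MA control averaged 1830 ± 148.2 in vector, and the C/EBP means were 1930 to 2190, with differences of 0.07 to 0.25. The mean over the 4 probe sets other than MB, an alternative added after the data were seen, was higher in epsilon by 0.47 (SE 0.15, adjusted p = 0.0383) and differed by 0.40 in alpha (SE 0.15, adjusted p = 0.091), which was not called, by 0.05 in beta (0.885) and by 0.02 in delta (0.996). With MB included the means differed by 0.72 in alpha and 0.77 in epsilon.

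**Figure D3:**
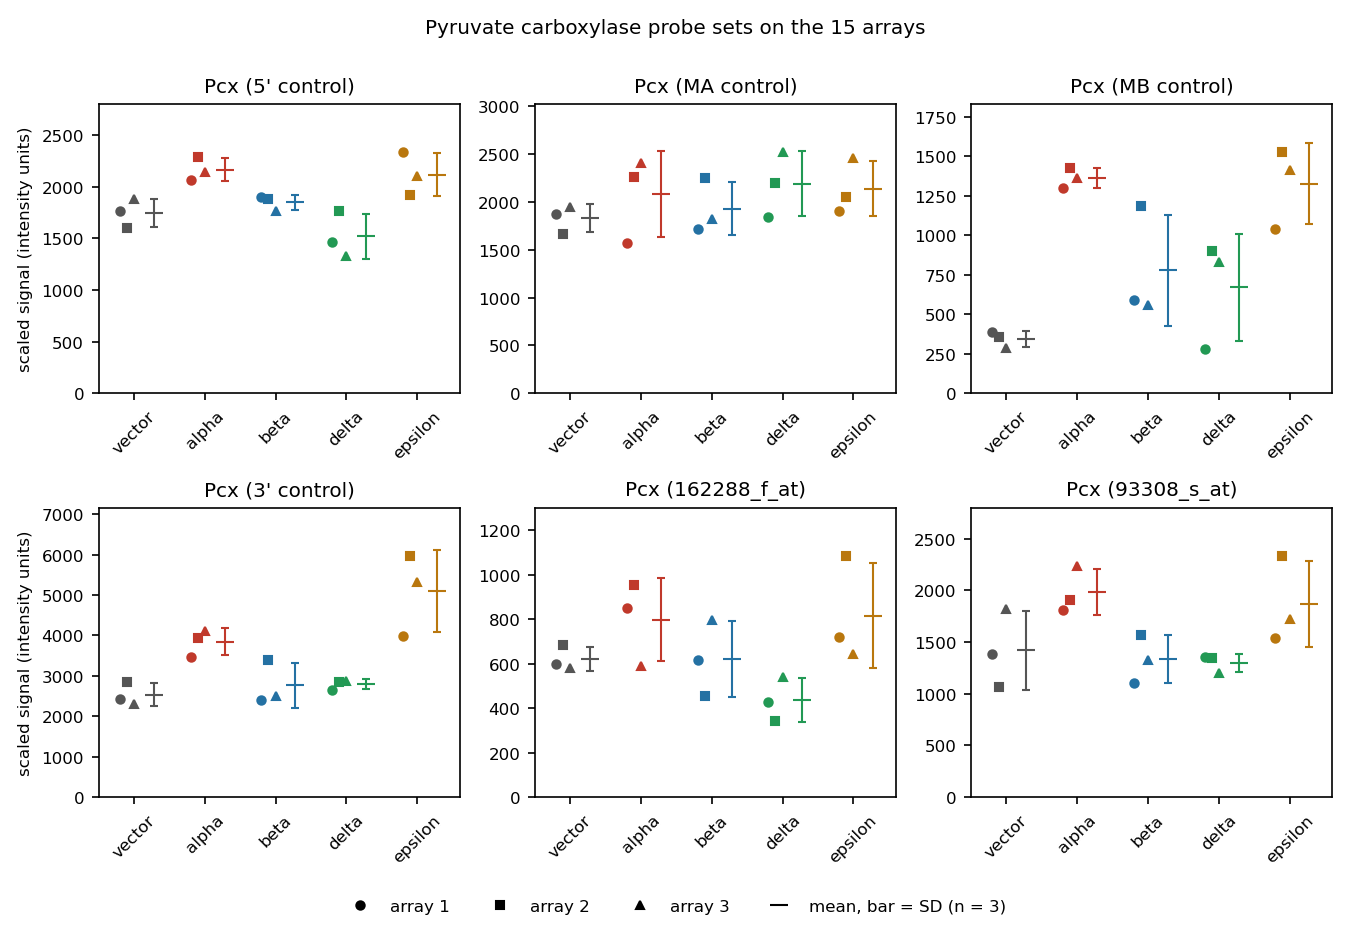
Scaled signal (vertical axis, intensity units, a separate scale in each panel) of the 6 Pcx probe sets on the 15 arrays, by group, with the mean and SD over 3 arrays beside the points; the 3′, 5′, MA and MB panels are the array's control probe sets. The 3′ control reads 3475 to 5968 units in alpha and epsilon against 2307 to 3394 elsewhere, while the MA control overlaps between all groups.

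Among the C/EBP groups, the 3′ control of Pcx was higher in epsilon than in beta (0.88, SE 0.17, adjusted p = 0.00708) and than in delta (0.85, SE 0.17, adjusted p = 0.00388). The first call was lost with only the groups compared (0.0788) and both were lost over the mean of the probe sets with MB (0.194 and 0.0555) and without it (0.188 and 0.0732), the ranges being 4.91e-05 to 0.194 and 0.000176 to 0.0732. Epsilon and alpha differed by 0.39 (95% interval 0.04 to 0.75), which was not called (adjusted p = 0.427). The 5′ control was lower in delta than in alpha (-0.52, SE 0.15, adjusted p = 0.0424). Leaving out any of 11 single arrays ended that call (adjusted p up to 0.182). So did using only the groups compared (0.112) and leaving out the arrays numbered 1 (0.201), over a range of 0.00921 to 0.201. Over all pairs of C/EBP groups, 1 of 13 member probe sets was called in beta against alpha (background 2.86%), 2 in delta against alpha (8.43%), 2 in epsilon against beta (2.33%) and 2 in epsilon against delta (8.23%), and the counts called were the same among the 12 without MB. None was called in epsilon against alpha (1.31%; 1 at an unadjusted p under 0.05) or in delta against beta (4.78%; 1 at an unadjusted p under 0.05). The moderated F-test over the 4 C/EBP groups called Pfkl (adjusted p = 0.000135) and the 3′ control (0.00424), 2 of 13 (2 of 12 without MB) against 10.2% of all probe sets. The second was lost over the mean of the Pcx probe sets with and without MB (0.0633 and 0.0943, range 5.67e-05 to 0.0943). Over all 5 groups it called Pfkl, Ldha and the 3′ control (adjusted p = 6.35e-06, 0.041 and 0.00152), 3 of 12 without MB and 4 of 13 with it, against 16.5%. The 3′ control was lost here over the mean of the probe sets without MB (0.0595, range 3.69e-05 to 0.0595). Ldha was lost with the floor at the 40th percentile (0.0554), no filter (0.0806), no trend (0.0518) and without any of 12 single arrays, all but vector replicate 2, alpha replicate 1 and epsilon replicate 1 (0.0534 to 0.121), over a range of 0.000378 to 0.121. The mean of the 4 C/EBP groups was higher than vector for the same probe sets, 3 of 12 without MB and 4 of 13 with it, against a background of 7.55% (Pfkl 0.94, Ldha 0.31 and 3′ control 0.47 on the log2 scale, adjusted p = 4.95e-05, 0.0475 and 0.0274). Ldha was lost with the same 3 settings (0.0586, 0.0767 and 0.0542) and without any of 12 single arrays, all but alpha replicate 1, beta replicate 1 and epsilon replicate 1 (0.0553 to 0.213), over a range of 0.00106 to 0.213. The 3′ control was lost with no filter (0.0541), without vector replicate 1 or 3 (0.111 and 0.156), without the arrays numbered 1 (0.0528) and over the mean without MB (0.221), over a range of 0.00344 to 0.221.

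The distance between the 3′ and 5′ controls of Pcx was read as the log2 difference of their signals. It was 0.53 ± 0.27 (SD, n = 3) in vector, 0.83 ± 0.10 in alpha, 0.56 ± 0.27 in beta, 0.89 ± 0.21 in delta and 1.25 ± 0.44 in epsilon. The 12 C/EBP arrays exceeded the 3 vector arrays by 0.35 on average, which did not pass an exact two-sided permutation test over all assignments of the arrays (p = 0.134, adjusted over 4 transcripts 0.416; the smallest p possible is 0.0022). The same measure for the other control transcripts differed by 0.03 for Gapdh, -0.08 for Actb and -0.26 for Tfrc (exact p = 0.312, 0.422 and 0.224). Their part in the Pcx signals was not tested.

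Of 17 further glycolysis genes listed, 12 had a probe set of their own and 8 were tested. By limma none of these was higher than vector in any C/EBP group (at an unadjusted p under 0.05, 1 in alpha, 1 in beta and 0 in delta and epsilon), while 2 were lower in alpha, 1 in beta, 0 in delta and 1 in epsilon, against 7.15%, 4.18%, 0% and 6.91% of all tested probe sets. Eno2, the enolase known from neurons, fell from 5955 ± 273.9 units in vector to 2950 ± 171.7 in alpha, 3401 ± 237.4 in beta and 2299 ± 382.2 in epsilon (log2 -1.01, -0.81 and -1.39, SE 0.14). Its adjusted p-values were 0.000119, 0.00172 and 4.91e-06, and these calls held under each alternative run. In delta it read 5263 ± 733.6 and was not called (adjusted p = 0.944). Bpgm, which makes bisphosphoglycerate, fell in alpha from 2007 ± 709.7 to 789.8 ± 387.3 (log2 -1.45, SE 0.35, adjusted p = 0.00897), a call lost without vector replicate 2 (0.0526, range 0.00349 to 0.0526). Gapdh was read through its control probe sets, whose differences from vector were -0.12 to 0.17 with none called by limma (adjusted p of 0.657 or more), each smaller than its SE. The list's median difference was 0.06 in alpha, 0.03 in beta, -0.12 in delta and 0.10 in epsilon, beside 0, 0.03, 0.01 and 0.08 over all tested probe sets. Glucose and lactate transporters (4 of 9 tested) gave no call against vector by limma and none at an unadjusted p under 0.05. The glucose transporter Slc2a1 differed by 0.18 in alpha and 0.14 in epsilon. The lactate transporter Slc16a1 differed by 0.43 and 0.48 there (SE 0.30). No enzyme that sets fructose bisphosphate (5 listed, 2 with a probe set) passed the signal filter.

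Downstream of pyruvate, 7 of 13 listed genes of pyruvate entry were tested. Pdk1, a kinase that shuts off pyruvate dehydrogenase, rose from 4758 ± 1013 units to 8653 ± 1076 in alpha and 9602 ± 1251 in epsilon (log2 0.88 and 1.03, SE 0.18, adjusted p = 0.00321 and 0.00104), and both calls held under each alternative run. Pdk4, another such kinase, fell in alpha from 1480 ± 427.8 to 828.5 ± 153.3 (log2 -0.82, adjusted p = 0.0435), and Dld, a subunit shared by pyruvate dehydrogenase and its relatives, rose there (log2 0.47, adjusted p = 0.0313). The Pdk4 call was lost without any of 12 single arrays (up to 0.221, without vector replicate 1) and held without vector replicate 3, delta replicate 3 or epsilon replicate 1, over a range of 0.0163 to 0.221. The Dld call was lost without vector replicate 1 or 3 or alpha replicate 1 or 3 (0.0958, 0.134, 0.139 and 0.0517), with only the groups compared (0.0883) and without the arrays numbered 1 (0.322), over a range of 0.00711 to 0.322. In all 2 rose and 1 fell in alpha and 1 rose in epsilon, against 7.19% higher and 7.15% lower in alpha and 9.4% higher in epsilon over all probe sets. No gene of the list passed in beta or delta (3 and 2 at an unadjusted p under 0.05). Of 4 tested gluconeogenesis genes none was called against vector in any group, also at an unadjusted p under 0.05, and the largest difference named was 0.34 for Mdh1 in epsilon. Of the other biotin carboxylases and biotin-handling genes, 2 of 8 were tested and neither was called against vector (1 at an unadjusted p under 0.05 in alpha, beta and epsilon). Of these, Btd, which recycles biotin, differed by 0.90 in alpha and 1.17 in epsilon (SE 0.42, adjusted p = 0.19 and 0.0695).

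In the citrate cycle, 14 of 16 listed genes were tested, with 2 higher in alpha, 1 in beta, 0 in delta (0 at an unadjusted p under 0.05) and 3 in epsilon, against 7.19%, 5.13%, 0.359% and 9.4% of all probe sets, and none lower. Suclg1, a subunit of succinyl-CoA ligase, rose from 5244 ± 755.6 units to 8700 ± 848.3 in alpha, 7997 ± 1115 in beta and 8138 ± 1277 in epsilon (log2 0.74, 0.61 and 0.63, SE 0.15, adjusted p = 0.00221, 0.0143 and 0.00707). The beta call was lost without vector replicate 1 or 3 or beta replicate 2 (0.0721, 0.0515 and 0.0757), with only the groups compared (0.0556) and without the arrays numbered 1 (0.0652), over a range of 0.000569 to 0.0757. Idh3g, a subunit of isocitrate dehydrogenase, was higher in alpha and epsilon (log2 0.42 and 0.36, adjusted p = 0.0186 and 0.0382) and Dlst, of the oxoglutarate dehydrogenase complex, in epsilon (0.32, 0.0481). Those 3 calls were lost without the arrays numbered 1 (0.205, 0.252 and 0.244) and without vector replicate 1 (0.0896, 0.149 and 0.126), with ranges of 0.00373 to 0.205, 0.00961 to 0.252 and 0.0087 to 0.244. Idh3g and Dlst in epsilon were also lost with quantile normalization (0.0839 and 0.131), no scaling (0.059 and 0.0646), the median ratio (0.102 and 0.112), no trend (0.0527 and 0.061) and only the groups compared (0.135 and 0.17). Idh3g in alpha was also lost with only the groups compared (0.0872) and without alpha replicate 3 (0.0868), Idh3g in epsilon without vector replicate 2, delta replicate 3 or epsilon replicate 1, 2 or 3 (0.0531 to 0.108), and Dlst without any single array but vector replicate 2 (0.0507 to 0.137). In the pentose phosphate pathway, 7 of 8 were tested and 1 was called in alpha and in epsilon, against 7.19% and 9.4% of all probe sets. Rpia, which isomerizes ribose phosphate, rose from 2857 ± 81.52 units to 5567 ± 350.7 in alpha (log2 0.96, adjusted p = 6.03e-05) and 4157 ± 643.3 in epsilon (0.53, 0.00945). The epsilon call was lost without epsilon replicate 2 (0.0504) and with only the groups compared (0.0698), over a range of 0.00456 to 0.0698.

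Since several glycolysis genes are known targets of the hypoxia pathway, hypoxia-induced genes outside glycolysis were read as a group (11 of 14 tested). In alpha 3 rose and 3 fell, in beta 0 rose and 3 fell, in epsilon 4 rose and 3 fell, and in delta none was called (3 higher at an unadjusted p under 0.05). The shares of all tested probe sets called higher and lower were 7.19% and 7.15% in alpha, 5.13% and 4.18% in beta, 9.4% and 6.91% in epsilon and 0.359% and 0% in delta. Bnip3, a mitochondrial autophagy protein, rose from 2003 ± 554.2 units to 4856 ± 782.6 in alpha and 3991 ± 277.3 in epsilon (log2 1.30 and 1.03, adjusted p = 0.000112 and 0.00109). Egln1, an oxygen-sensing prolyl hydroxylase, rose by 0.77 in epsilon (adjusted p = 0.000981) and by 0.55 in alpha (0.0106), the latter call lost without vector replicate 3 (0.0644) and without the arrays numbered 1 (0.0702), over a range of 0.000881 to 0.0702. Ndrg1, a stress-induced gene, fell from 14880 ± 1401 to 6603 ± 1739 in alpha and 5704 ± 935.3 in beta (log2 -1.20 and -1.39, adjusted p = 0.000316 and 0.000207), and to 9479 ± 2376 in epsilon (-0.67, 0.023). The epsilon fall was lost with no filter (0.0716) and without vector replicate 1 or 2 or epsilon replicate 2 or 3 (0.0802, 0.051, 0.0938 and 0.096), over a range of 0.00275 to 0.096. Ddit4, an inhibitor of mTOR signalling, fell in beta and epsilon (log2 -0.83 and -0.75, adjusted p = 0.012 and 0.0146). The beta call was lost without the arrays numbered 1 (0.0546, range 0.00295 to 0.0546) and the epsilon call without epsilon replicate 3 (0.0811) or with no filter (0.0505), over a range of 0.00213 to 0.0811. The list thus held both rises and falls in alpha and in epsilon, only falls in beta and no call in delta.

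**Figure D4:**
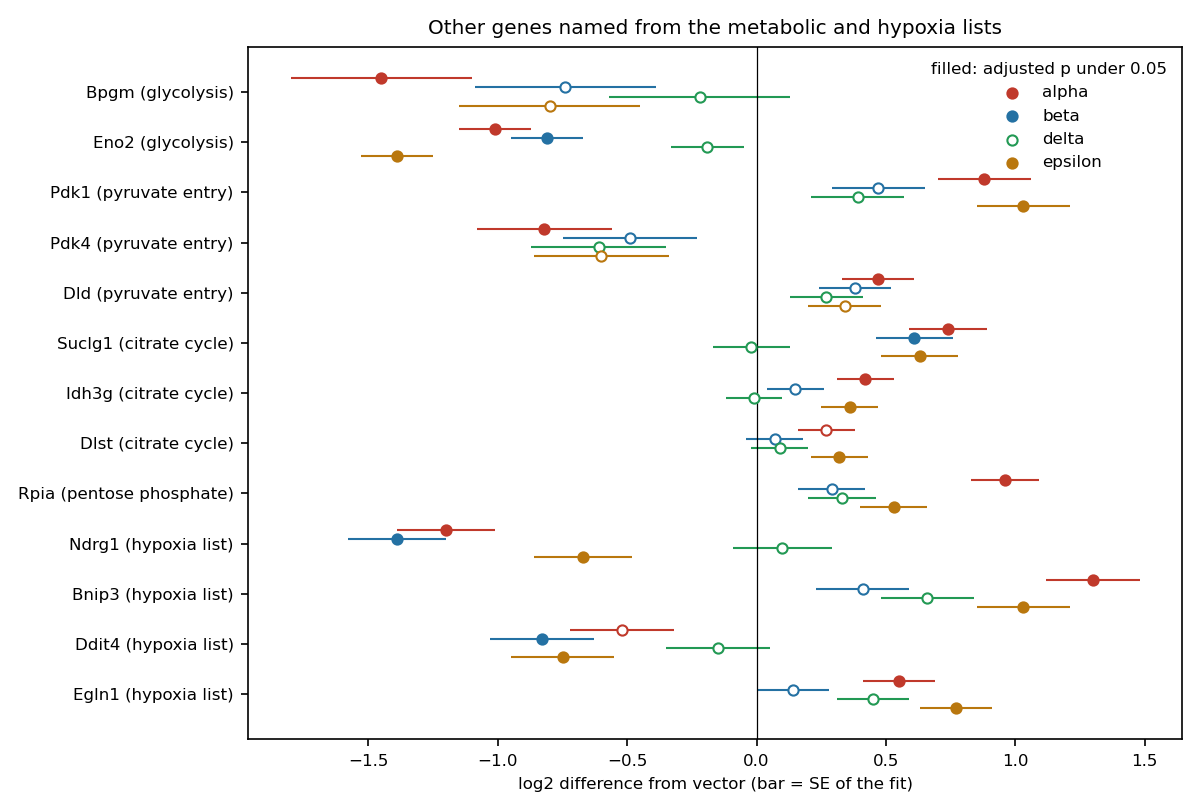
Log2 difference from vector (horizontal axis, points with the standard error of the fit as bars) of 13 genes named from the lists of other glycolysis, pyruvate entry, citrate cycle, pentose phosphate and hypoxia genes, in the 4 C/EBP groups (colours); filled points have an adjusted p under 0.05. Eno2 lies at -1.01 in alpha and -1.39 in epsilon, on the other side of 0 from Pdk1 at 0.88 and 1.03, and all points of delta are open.

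The arrays numbered 1, the arrays whose titles carry no number, read low for most members. Their log2 deviation from the other arrays of the same group averaged -0.76 for Hk1, at the 1.05th percentile of all tested probe sets, and ranged from -0.91 in vector to -0.45 in delta. It averaged -0.51 for Aldoa (160090_f_at), -0.35 for Hk2, -0.34 for Tpi1, -0.21 for Pfkl and for Pgk1, -0.16 for Ldha and -0.24 for the 3′ control of Pcx, while the median over all tested probe sets was -0.07. Of the 13 member probe sets, 9 were lower on array 1 in all 5 groups and 0 were higher in all 5, against 21.8% and 7.26% of all tested probe sets. The exceptions were the 5′, MA and MB controls and 93308_s_at of Pcx. What sets these arrays apart is not given in the labels and was not tested. Without them Pfkl kept its calls in alpha, beta and epsilon and the 3′ control its call in epsilon, while Hk2 in epsilon and the 3′ control in alpha lost theirs.

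**Figure D5:**
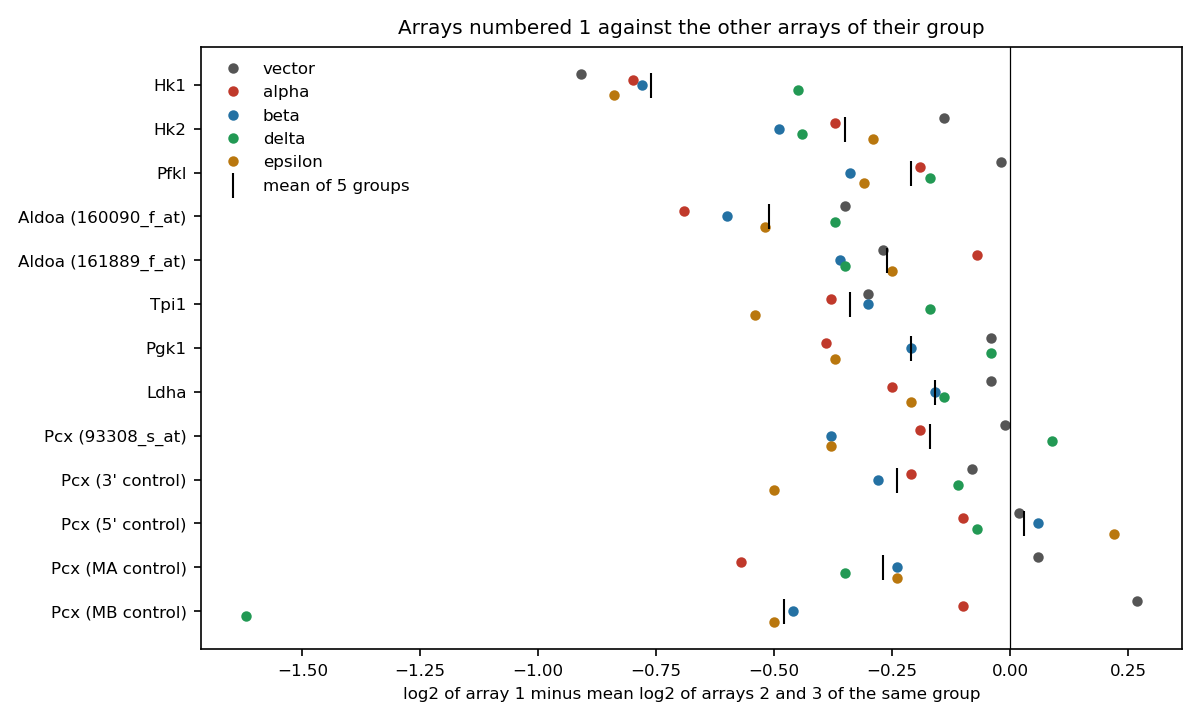
Log2 signal on the array numbered 1 minus the mean of arrays 2 and 3 of the same group (horizontal axis) for the 13 tested member probe sets, with 1 point for each of the 5 groups and a vertical mark at their mean. All points of Hk1 lie at -0.45 or below, and the points of the 5′ control of Pcx lie on both sides of 0.

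Most markers of the labelled cell type were present. Of 10 fibroblast markers, 6 exceeded the pooled median signal on all 15 arrays (Col1a1, Col1a2, Fn1, Thy1, Pdgfra and S100a4), while Vim did so on 1 array and Lum on none, and the summed signal of the list was 105300 to 139800 units in vector, 85340 to 110700 in alpha, 128200 to 184500 in beta, 103000 to 108800 in delta and 108600 to 141600 in epsilon. Thy1 fell in alpha (adjusted p = 0.0122), Col3a1 rose in beta and epsilon (0.00159 and 0.00116), and Col1a1 and Pdgfrb rose in beta (0.0232 and 0.031). Of the 8 fibroblast markers tested, 1 was lower in alpha, 3 were higher in beta and 1 in epsilon. The shares of all tested probe sets were 7.15%, 5.13% and 9.4%. Marker calls were not followed over the alternatives. Col3a1 and Pdgfrb exceeded the pooled median on 8 arrays each. Of the hepatocyte markers, which include albumin and transthyretin, 0 of 5 did so on any array. For fat cells 1 of 5 exceeded it on all arrays (Lep), for myeloid cells 1 of 7 (Csf1r), for epithelium 1 of 5 (Cdh1) and for muscle 1 of 5 (Myog). The summed muscle markers read 2173 to 2865 units in vector, 3241 to 3708 in alpha, 2418 to 3199 in beta, 2543 to 3625 in delta and 2761 to 5452 in epsilon. The summed fat cell markers read 4331 to 4986 units in vector, 4658 to 5245 in alpha, 4193 to 4945 in beta, 4272 to 4815 in delta and 4921 to 6506 in epsilon. Among the 3 myeloid markers tested, Lyz2 rose in alpha (adjusted p = 0.000475) and Cd68 fell in alpha, beta and epsilon (8.77e-08, 0.000481 and 4.57e-06). Of all tested probe sets 7.19% were called higher in alpha, and 7.15%, 4.18% and 6.91% lower in alpha, beta and epsilon. The summed myeloid markers read 10660 to 11190 units in vector, 8840 to 11070 in alpha, 7604 to 9450 in beta, 8505 to 8845 in delta and 7272 to 10020 in epsilon, so that beta, delta and epsilon lay below vector. Their part in the values above was not tested.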

How the data were processed

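RNA of 15 cultures was read on Affymetrix MG_74Av2 arrays, 3 in each of 5 groups named by the sample titles. Each deposited value is the linear intensity of a probe set, which the authors computed in Microarray Suite 5.0 per the labels. They reach from 0.5 to 256544, and their 2% trimmed mean of 2501.12 to 2501.39 on every array shows a common scaling by the authors. No detection calls were used here, and no columns were left out. The number of arrays, not a count of reads, limits the precision.

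Each array was divided by its median over 12426 probe sets (all but the controls, with the 4 pyruvate carboxylase controls kept) and brought to the average of the 15 medians. The array factors were 0.910479 to 1.05665. Over all 12488 probe sets the array medians were 992.25 to 1149.7 as deposited. A floor of 189.769 units, the 20th percentile over all arrays, was set before taking log2. Testing was limited to the 6965 probe sets (5336 genes) with signals over 1092.56 units, the pooled median, on 3 or more arrays. Symbols came from the platform annotation, in which 10833 probe sets outside the 66 controls name 1 gene, 396 name several and 1193 name none.

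A single model over the 5 groups was fitted in limma 3.58.1 (R 4.3.3), using lmFit and then eBayes with a trend. Tests were two-sided with Benjamini-Hochberg adjustment within each comparison and a threshold of 0.05, and intervals are 95% intervals of the fit. The fit was tested on simulated data. Each gene with several tested probe sets was led by the brightest. All members are described. Of each list, up to 4 genes past the threshold with the largest difference from vector are named, or, where none passed, the 2 with the smallest unadjusted p. The members and lists were chosen with earlier results of these data known. The Gapdh, Actb and Tfrc controls and the Pcx mean without MB were added after seeing the data. The alternatives were other scalings, floors and filters, weighted arrays, eBayes with no trend, a block for the replicate number, only the groups compared, the labels' univariate F-test, the mean of a gene's probe sets, no controls, and leaving out each array or the 5 arrays numbered 1.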

Additional observations from a re-analysis of the deposited data

Results flagged for a closer look

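The C/EBP groups differed from each other in 2 of 13 member probe sets (2 of 12 without MB) by limma's moderated F-test. The same test called 10.2% of all tested probe sets. For Pfkl the adjusted p was 0.000135, with alpha and epsilon (20980 ± 1586 and 19740 ± 2985 units, SD over 3 arrays) above beta and delta (12750 ± 2764 and 9586 ± 677.1 units) on every array. For the 3′ control probe set of Pcx it was 0.00424, with epsilon (5097 ± 1005 units) and alpha (3845 ± 331.8) above beta and delta (2765 ± 547.6 and 2797 ± 122.8) on every array. Over the mean of the 5 tested Pcx probe sets the second difference was not called (adjusted p = 0.0633, or 0.0943 without the MB control).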

How the results depend on the processing

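The counts here and in the next paragraph include the MB control where it was called, although its test is not read as a result. Leaving out single arrays gave counts of called member probe sets of 2 to 5 in alpha against vector (5 with all arrays), 1 to 2 in beta (1), 0 to 0 in delta (0) and 3 to 6 in epsilon (5). MB was among those called in alpha and in epsilon in each of these runs. The second call in beta was MB itself, without delta replicate 1. Alpha fell to 2 (Pfkl and MB) without vector replicate 1 or 3 or alpha replicate 2 or 3. Epsilon fell to 3 (Pfkl, the 3′ control and MB) without vector replicate 1 or 3 or epsilon replicate 2 or 3. Between C/EBP groups the ranges were 0 to 1 for beta against alpha (1), 1 to 2 for delta against alpha (2), 1 to 2 for epsilon against beta (2) and 2 to 3 for epsilon against delta (2). They were 1 to 5 for the mean of the 4 C/EBPs (4), 3 to 4 for any difference among the 5 groups (4), and 0.23 to 0.5 for the 3′ to 5′ difference of Pcx (0.35). With quantile normalization 3 were called in beta, 5 in beta against alpha, 6 in delta against alpha, 2 in delta against beta, 4 in epsilon against beta, 7 among the 5 groups and 6 over the 4 C/EBPs. Calls over all tested probe sets rose there too, from 999 to 1280 in alpha, 648 to 914 in beta, 25 to 39 in delta and 1136 to 1340 in epsilon. The totals were 1248, 878, 36 and 1354 with no scaling, and 1213, 836, 31 and 1305 with the median ratio. With no scaling 3 were called in beta against alpha, 5 in delta against alpha and 1 in delta against beta, and with the median ratio 3 in beta against alpha. Array weights gave 2, 4, 1, 5 and 4 in beta against alpha, delta against alpha, delta against beta, epsilon against beta and epsilon against delta, and 8 in each F-test. No filter gave 1 in epsilon against beta and 2 for the mean of the 4 C/EBPs, and no trend 1 in epsilon against beta. Only the groups compared gave 3 in epsilon against vector, 1 in delta against alpha and 0 in epsilon against beta. Without the arrays numbered 1, 0 were called in beta against alpha, 1 in delta against alpha and 1 in epsilon against beta. Over all tested probe sets those calls fell from 199 to 128, 587 to 394 and 162 to 77. For the other settings the totals between C/EBP groups are not given here, so these member counts are not read as changes particular to the members. Leaving out all controls removed the Pcx controls and left 3 in alpha, 3 in epsilon, 1 in delta against alpha, epsilon against beta and epsilon against delta, 2 for the mean and among the 5 groups, and 1 over the 4 C/EBPs. Apart from the construction of that setting and of fits with fewer arrays, the cause was not tested. No called value changed sign in any alternative run. The alternatives gave 5585 values for single probe sets, called ones and the unsigned adjusted p-values of the F-tests included. Among these values, 135 were differences that were not called and changed sign.

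Arrays of different groups share the replicate numbers 1 to 3. Of the 30 correlations between the deviations of same-numbered arrays, 20 exceeded 0.1 (range -0.069 to 0.44). These were 10 of 10 for number 1 (0.225 to 0.44), 8 of 10 for number 2 (0.019 to 0.428) and 2 of 10 for number 3 (-0.069 to 0.123). Since this did not hold for number 3, the main fit did not take the numbers to pair the samples. Differences that same-numbered arrays share therefore stay in the spread of the main fit. In 46 of 60 cases an array correlated best with its own number in another group, and 8 of the 15 arrays did so in all 4 other groups. With the replicate number as a block, 2 member probe sets were called in beta against vector, 4 in beta against alpha, 5 in delta against alpha, 2 in delta against beta, 4 in epsilon against beta, 5 in epsilon against delta, 7 among the 5 groups and 5 over the 4 C/EBPs. Members called with the block and not without it included Ldha in all 4 comparisons of alpha or epsilon with beta or delta (adjusted p of 0.0107 to 0.0251), Hk2 in beta and in delta against alpha and in epsilon against delta (0.022, 0.00784 and 0.0247), Pgk1 in alpha and epsilon against vector (0.0209 and 0.00814), Tpi1 in beta against vector (0.0216) and Pfkl in delta against beta (0.0276). Over all tested probe sets the block moved the calls from 999 to 1444 in alpha, 648 to 1099 in beta, 25 to 44 in delta and 1136 to 1679 in epsilon. Between C/EBP groups they moved from 199 to 351 in beta against alpha, 587 to 996 in delta against alpha and 333 to 684 in delta against beta. The moves were 162 to 311 in epsilon against beta and 573 to 1042 in epsilon against delta. For the F-tests they were 1151 to 1825 among the 5 groups and 710 to 1257 over the 4 C/EBPs.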

Other observations

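The log2 signal of each of the 7 glycolysis genes was centred and divided by its SD over the 15 arrays, and the 7 were averaged. The genes whose log2 signal followed this mean most closely were Taf1c (Pearson r 0.945), Rbmxl1 (0.928), Pgam1 (0.928), Psmg1 (0.926) and Tkt (0.925). Pgam1, the phosphoglycerate mutase of the lower pathway, and Tkt, the transketolase of the pentose phosphate pathway, were not among the members. Without the 5 arrays numbered 1 these correlations were 0.911, 0.911, 0.894, 0.94 and 0.923 over 10 arrays. The 3′ control of Pcx was followed most closely by Rogdi (0.959), Desi1 (0.938), Eif1b (0.923), Pgm1 (0.922) and Extl3 (0.920). Pgm1 encodes phosphoglucomutase, which links glycogen to glycolysis. Without the arrays numbered 1 these were 0.975, 0.935, 0.95, 0.913 and 0.923. The arrays share 5 groups and their normalization, and these genes were picked as the highest of all tested probe sets, so the values are a description.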
